A study of Mus musculus with 4 samples.

Results

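The let-7 family is a group of closely related miRNAs encoded at several places in the mouse genome, and its guide arms are the strands that are loaded into Argonaute and direct silencing. They were chosen by name as the 5p arms of let-7a, let-7b, let-7c, let-7d, let-7e, let-7f, let-7g, let-7i and miR-98, 9 of 1326 mature miRNAs listed. All 9 had 10 or more counts in at least 2 libraries, as did 584 miRNAs in all. The libraries came from whole retina at E18.5, late in gestation. There were 2 from Ptf1a-/- embryos and 2 from Ptf1a+/- embryos, so both genotypes carry the mutant allele, and no wild-type retina was analysed here. Ptf1a encodes a transcription factor that retinal progenitors need to form amacrine and horizontal cells. The labels give neither the kind of Ptf1a allele nor the animals behind each library. The p-values therefore cover differences among 4 libraries whose origin in separate embryos is not stated, and that spread may be technical. The question is how much of each let-7 paralog the retina holds and whether level or mix differs when Ptf1a function is lost.

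A let-7 guide pairs with target mRNAs through its seed, bases 2 to 8, and lowers their translation and stability. let-7 was first described as a timing gene in Caenorhabditis elegans, and in vertebrates its mature forms build up as cells leave the progenitor state. LIN28, abundant in early progenitors, binds the loop of many let-7 precursors and blocks their processing. In the mouse retina let-7, miR-125 and miR-9 are known to help progenitors move from early to late competence.

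All 9 guides share the seed GAGGUAG. The mature sequences are shown because the paralogs are told apart by only a few bases outside it. They are RefSeq's (GRCm38.p6), written 5′ to 3′ with the seed in capitals.
mmu-let-7a-5p: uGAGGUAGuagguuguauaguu
mmu-let-7b-5p: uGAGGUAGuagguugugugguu
mmu-let-7c-5p: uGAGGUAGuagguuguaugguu
mmu-let-7d-5p: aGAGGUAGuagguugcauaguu
mmu-let-7e-5p: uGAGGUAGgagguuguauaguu
mmu-let-7f-5p: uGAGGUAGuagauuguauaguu
mmu-let-7g-5p: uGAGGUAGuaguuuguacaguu
mmu-let-7i-5p: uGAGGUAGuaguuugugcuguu
mmu-miR-98-5p: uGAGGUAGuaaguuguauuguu

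All 9 are 22 nt long, and 14 of the 22 positions are the same in every one. Relative to let-7a, counting from 1 at the guide's 5′ end, let-7c carries A19G, let-7e U9G and let-7f G12A. let-7b carries A17G and A19G, let-7d U1A and U16C, let-7g G12U and U18C, and miR-98 G11A and A19U. let-7i is the most distant from let-7a with G12U, A17G, U18C and A19U. Of the 36 pairs of members, 4 differ by 1 base and 10 by 2. For each of the 9, the most frequent sequence that the authors deposited equalled the RefSeq sequence in 4 of 4 libraries, so neither the main length nor the main sequence differed between genotypes. How the counting divided reads that match several paralogs is not stated. Of the 36 member counts, 30 were not whole numbers.

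The 9 guides come from 12 hairpins (GRCm38.p6 coordinates from RefSeq, overlapping genes from GENCODE M21). Mirlet7a-1 (chr13:48538179-48538272), Mirlet7f-1 (chr13:48537829-48537917) and Mirlet7d (chr13:48536012-48536114) lie together on the minus strand, in exons of the long noncoding RNA gene 6720427I07Rik. Mirlet7c-2 (chr15:85706603-85706697) and Mirlet7b (chr15:85707319-85707403) lie 621 bases apart in exons of Lncppara. Mirlet7c-1 (chr16:77599657-77599750) lies in an intron of Mir99ahg and Mirlet7a-2 (chr9:41536716-41536811) in an intron of 3110039I08Rik. Mirlet7f-2 (chrX:151912346-151912428) and Mir98 (chrX:151913214-151913321) both lie in introns of Huwe1. Mirlet7e (chr17:17830352-17830444) lies in an intron of Spaca6 and Mirlet7g (chr9:106178840-106178927) in an intron of Wdr82. Mirlet7i (chr10:122985640-122985724, minus strand) lies in an exon of the transcribed pseudogene D630033A02Rik. let-7a, let-7c and let-7f thus each have a pair of source loci, whose identical guides cannot be told apart.

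Ptf1a-/- libraries held 3658490 and 3917069 listed counts, and Ptf1a+/- libraries 3647145 and 4385834. The spread within the genotypes was very unequal: the biological coefficient of variation was 22.6% between the Ptf1a-/- libraries and 1.39% between the Ptf1a+/- libraries. Over the 9 members alone, the Ptf1a-/- pair differed by a chi-square of 676 per degree of freedom and the Ptf1a+/- pair by 6.87. Over all miRNAs with 20 or more counts in the pair it was 120 for Ptf1a-/- and 1.85 for Ptf1a+/-. Both pairs thus differed beyond read sampling and were kept as replicates. That cannot tell separate embryos from repeat libraries of 1 RNA, because making a library also adds spread. The retinal and neuronal miRNAs miR-124-3p, miR-9-5p, miR-183-5p, miR-182-5p and miR-96-5p were present in every library, summing to 363414 and 517788 CPM in Ptf1a-/- and 340223 and 336990 CPM in Ptf1a+/-. Their log2 fold changes (Ptf1a-/- over Ptf1a+/-, ± SE) went both ways. They were 0.38 ± 0.20 for miR-9-5p, 0.48 ± 0.21 for miR-183-5p and 0.37 ± 0.27 for miR-182-5p. For miR-96-5p and miR-124-3p they were -0.34 ± 0.15 and -0.15 ± 0.13. Of 17 markers for vessels, striated muscle, blood, lens or surface epithelium and pigment epithelium, 12 were measured and 0 were higher. There were 2 lower, miR-200b-3p of surface epithelium, with 1 and 3 counts in Ptf1a-/- and 25 and 31 in Ptf1a+/- (edgeR, adjusted p = 0.0124), and miR-204-3p of pigment epithelium (adjusted p = 0.0436), whose call was lost under 13 of 17 alternatives. Vessel markers summed to 337 and 566 CPM in Ptf1a-/- and 580 and 598 CPM in Ptf1a+/-, muscle markers to 65.0 and 70.2 CPM in Ptf1a-/- and 48.5 and 51.3 CPM in Ptf1a+/-. Of the vessel markers, miR-143-3p had a log2 fold change of -1.03 ± 0.25 and the more abundant miR-126a-3p of -0.35 ± 0.24. Pigment epithelium markers summed to 3203 and 3565 CPM in Ptf1a-/- and 3689 and 3728 CPM in Ptf1a+/-, lens and surface markers to 227 and 300.4 CPM in Ptf1a-/- and 305 and 292 CPM in Ptf1a+/-. In the pigment epithelium sum, miR-204-5p, far more abundant than miR-204-3p, had a log2 fold change of -0.09 ± 0.11 and miR-211-5p of -0.35 ± 0.29. In the lens and surface sum, miR-203-3p had a log2 fold change of 0.30 ± 0.14 and miR-184-3p of -0.44 ± 0.28. The part of all these markers in the results below was not tested. The blood markers summed to 63.7 and 96.4 CPM in Ptf1a-/- and 73.3 and 70.4 CPM in Ptf1a+/-, with miR-451a at 1 count or fewer in every library.

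The 9 guides together held 14.8 and 15.8% of listed counts in Ptf1a-/- retina and 14.8 and 14.7% in Ptf1a+/- retina. Levels below are TMM-scaled CPM: counts relative to library size, adjusted by a factor per library that sets most miRNAs level. In bulk retina, fewer cells of a type and less RNA per cell cannot be told apart. On this scale the family summed to 139393 and 190444 CPM in Ptf1a-/- and to 139463 and 136737 CPM in Ptf1a+/-. The Ptf1a-/- replicate 1 total lay between the Ptf1a+/- totals and that of replicate 2 lay well above them, so the genotypes overlapped. The TMM factors were 1.06 and 0.829 in Ptf1a-/- and 1.06 and 1.07 in Ptf1a+/-, and a smaller factor raises every CPM of its library. Without these factors the totals were 147648 and 157942 CPM in Ptf1a-/- and 148083 and 146596 CPM in Ptf1a+/-. On the deposited CPM the totals were 114162 and 113923 in Ptf1a-/- and 122840 and 122697 in Ptf1a+/-, without overlap and with Ptf1a-/- the lower. The log2 ratio of the means was 0.26 with TMM and 0.05 with library size as the only scaling, and turned to -0.11 on the deposited CPM. The median of all 584 miRNAs moved with it and stood at -0.0031 with TMM, -0.18 with library size only and -0.33 on the deposited CPM. Relative to that median the family stood at 0.26, 0.23 and 0.23. A change of scale moves all miRNAs of a library alike, so this distance is nearly fixed in advance and is no check on the scaling. That distance depended on the Ptf1a-/- library kept: with TMM the family ratio was 0.45 without replicate 1, against a median of -0.05 over all miRNAs, and 0.017 without replicate 2, against -0.0077.

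mmu-let-7i-5p was the dominant paralog in every library and the fourth most abundant miRNA of all. It stood at 78998 and 114193 CPM in Ptf1a-/- and 85588 and 83179 CPM in Ptf1a+/-. The Ptf1a-/- libraries lay on either side of the Ptf1a+/- pair. Its log2 fold change (Ptf1a-/- over Ptf1a+/-, ± SE) was 0.19 ± 0.21 with TMM (edgeR quasi-likelihood test, Benjamini-Hochberg adjusted p = 0.622) and -0.17 on the deposited CPM (limma, adjusted p = 0.233). Ligation and PCR favour some sequences, so an order between paralogs is less firm than a comparison of 1 paralog between libraries.

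mmu-let-7f-5p was next. It stood at 18618 and 22430 CPM in Ptf1a-/- and 14137 and 13919 CPM in Ptf1a+/-. Both Ptf1a-/- libraries were above both Ptf1a+/- libraries, and its rank among all miRNAs was 7 in both Ptf1a-/- libraries and 9 in both Ptf1a+/- libraries. Its log2 fold change was 0.55 ± 0.14, an adjusted p of 0.0755 in edgeR, which did not pass the threshold of 0.05. DESeq2's Wald test gave 0.56 ± 0.18 and an adjusted p of 0.0205, which did pass. Both tests pool the spread of the genotypes, which was very unequal, so SE and p lean on the close Ptf1a+/- pair. With replicate number as a block the log2 fold change was 0.54 ± 0.20 (edgeR, adjusted p = 0.216). Leaving out Ptf1a+/- replicate 1 or replicate 2 gave 0.53 and 0.52. On the deposited CPM the log2 fold change of let-7f was 0.20 ± 0.12 (limma, adjusted p = 0.341). let-7f stood above the median of all miRNAs by 0.55 with TMM, 0.53 with library size only and 0.53 on the deposited CPM. A change of scale leaves that distance nearly fixed.

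mmu-let-7g-5p stood at 14835 and 18083 CPM in Ptf1a-/- and 12095 and 11867 CPM in Ptf1a+/-. The genotypes did not overlap, as for let-7f. Its log2 fold change was 0.46 ± 0.14 (edgeR, adjusted p = 0.111).

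mmu-let-7a-5p is made from the chromosome 13 cluster and from chromosome 9. It stood at 11224 and 13004 CPM in Ptf1a-/- and 10995 and 11061 CPM in Ptf1a+/-. Both Ptf1a-/- values were the higher ones, replicate 1 only slightly so. The log2 fold change was 0.14 ± 0.13 with TMM and -0.21 on the deposited CPM (edgeR adjusted p = 0.573 with TMM).

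mmu-let-7d-5p, the only member with U1A, stood at 5865 and 6733 CPM in Ptf1a-/- and 6535 and 6544 CPM in Ptf1a+/-. Its Ptf1a-/- libraries enclosed the Ptf1a+/- pair. It was the only member with a fitted log2 fold change below 0 with TMM, -0.05 ± 0.12 (edgeR, adjusted p = 0.826).

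mmu-let-7c-5p stood at 4312 and 8381 CPM in Ptf1a-/- and 4750 and 4787 CPM in Ptf1a+/-. let-7b-5p stood at 1583 and 3600 CPM in Ptf1a-/- and 1858 and 1863 CPM in Ptf1a+/-. Both had Ptf1a-/- replicate 1 below and replicate 2 far above the Ptf1a+/- pair. Their log2 fold changes of 0.41 ± 0.30 and 0.48 ± 0.35 (edgeR, adjusted p = 0.448 and 0.461) therefore rest on replicate 2 alone: without it they were -0.14 and -0.23.

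mmu-let-7e-5p, the only member with U9G, stood at 2592 and 2585 CPM in Ptf1a-/- and 2167 and 2218 CPM in Ptf1a+/-. With TMM, replicates of each genotype nearly coincided, and the genotypes did not overlap. The log2 fold change was 0.24 ± 0.10 with TMM and -0.11 on the deposited CPM (edgeR adjusted p = 0.210 with TMM). With library size only it was 0.06 ± 0.15. miR-98-5p was the least abundant, at 1367 and 1434 CPM in Ptf1a-/- and 1340 and 1299 CPM in Ptf1a+/-. It had a log2 fold change of 0.09 ± 0.10 with TMM and -0.26 on the deposited CPM (edgeR adjusted p = 0.666 with TMM). In the order of levels in Ptf1a+/- retina no 2 neighbours had overlapping libraries. In Ptf1a-/- retina let-7d and let-7c overlapped, and let-7e lay between the libraries of let-7b.

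**Figure D1:**
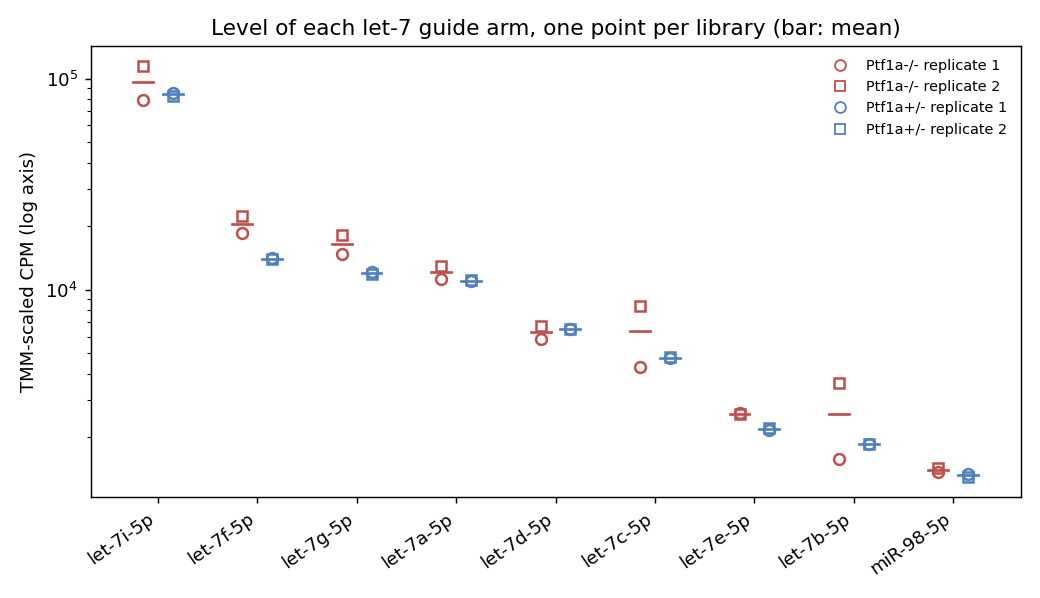
TMM-scaled CPM (log axis) of each let-7 guide arm in each library, Ptf1a-/- left and Ptf1a+/- right, with a bar at the mean of 2 libraries. The Ptf1a+/- points nearly coincide for all 9, while let-7b and let-7c are split between the Ptf1a-/- libraries, at 1583 against 3600 and 4312 against 8381 CPM.

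No member passed the edgeR test over all miRNAs: 0 of 9 were higher and 0 of 9 lower, where 6.16% of the 584 miRNAs were higher, 3.6% lower and 9.76% either. At an unadjusted p under 0.05 it was 2 of 9, let-7f and let-7g, against 25.3% of all miRNAs. By DESeq2 1 member passed, let-7f, where 10.1% of all miRNAs did, and by limma on the deposited CPM 0 did, where 4.79% of all miRNAs did. With TMM, the lower Ptf1a-/- value exceeded the higher Ptf1a+/- value for 5 of 9 (55.6%), against 26.7% of all miRNAs. The reverse held for 0 of 9, against 31.5%. The 584 miRNAs include many scarcer ones, while all 9 members are among the 79 with a mean of 1000 CPM or more. Over those 79 the median of replicate 2 over replicate 1 was 1.17 in Ptf1a-/- and 1.00 in Ptf1a+/-. How many of the 79 lay above or below without overlap was not measured. The count of 5 depends on the scale: it includes let-7a and miR-98, whose log2 fold changes with library size only were -0.054 and -0.094. The members' median log2 fold change was 0.24, against -0.0031 over all miRNAs. Without Ptf1a-/- replicate 1 it was 0.43, against -0.05 over all miRNAs, and without replicate 2 it was 0.029, against -0.0077. The calls also turn on which Ptf1a-/- library is kept. Without replicate 1, 8 members were higher and 0 lower, where 23.7% of all miRNAs were higher and 21.9% lower. Without replicate 2, 3 members were higher and 4 lower, where 23.6% of all miRNAs were higher and 23.7% lower. In those fits the lone Ptf1a-/- library is assumed to vary like the Ptf1a+/- pair, whose spread was very small. Without Ptf1a+/- replicate 1, and likewise without its replicate 2, 0 members passed, where 0.0 and 0.177% of all miRNAs did.

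**Figure D2:**
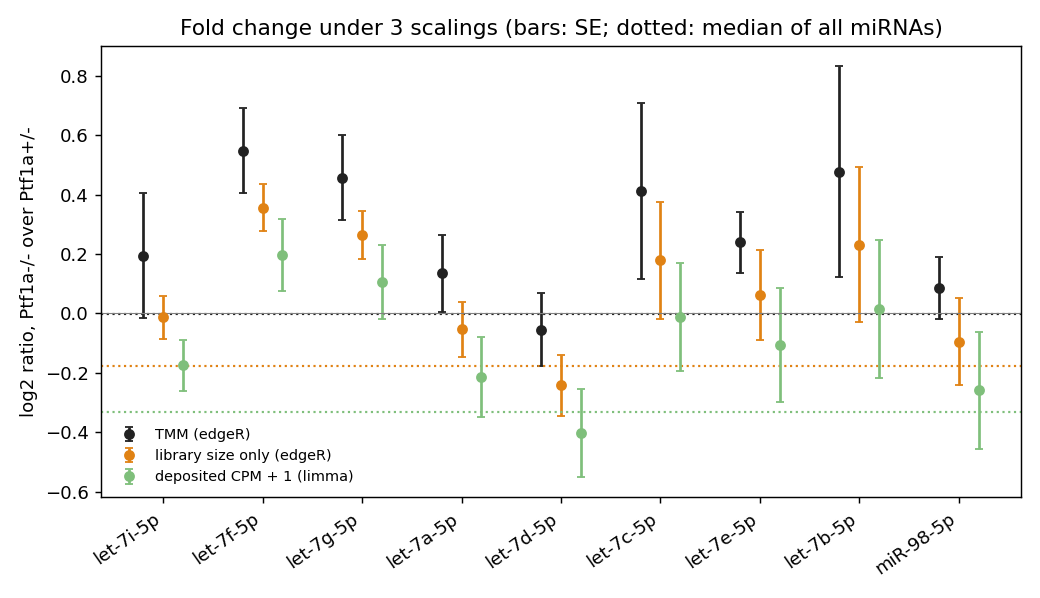
log2 ratio of Ptf1a-/- over Ptf1a+/- for each member (points, bars SE) with TMM, library size only and the deposited CPM, and the median of all 584 miRNAs on each scale (dotted). All members move down together from TMM to the deposited CPM, where 3 of 9 lie above 0 against 8 of 9 with TMM. let-7f lies 0.53 to 0.55 above the median on each scale, a distance that a change of scale leaves nearly fixed.

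The mix of paralogs was measured as each member's share of the summed let-7 guide counts, which no scaling between libraries can alter. let-7i made up 56.7 and 60.0% of the pool in Ptf1a-/- and 61.4 and 60.8% in Ptf1a+/-. let-7f made up 13.4 and 11.8% in Ptf1a-/- and 10.1 and 10.2% in Ptf1a+/-. let-7g made up 10.6 and 9.50% in Ptf1a-/- and 8.67 and 8.68% in Ptf1a+/-. let-7d made up 4.21 and 3.54% in Ptf1a-/- and 4.69 and 4.79% in Ptf1a+/-. For these 4 the genotypes did not overlap, let-7f and let-7g being the higher and let-7i and let-7d the lower in Ptf1a-/-. For the other 5, let-7a, let-7c, let-7e, let-7b and miR-98, they overlapped. let-7a took 7.44 ± 0.866% of the pool in Ptf1a-/- and 7.99 ± 0.145% in Ptf1a+/- (mean ± SD, n = 2 each). let-7c took 3.75 ± 0.925% in Ptf1a-/- and 3.45 ± 0.0673% in Ptf1a+/-. miR-98 was the smallest part, at 0.867 ± 0.161% in Ptf1a-/- and 0.955 ± 0.00767% in Ptf1a+/-. Counting error on a share was at most 0.132 percentage points either way (95% Wilson interval). Shares of the pool that do not overlap were found for 4 of 9 members (44.4%), against 55% of all 584 miRNAs measured on the same scale.

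With the family sum as library size, edgeR called 0 of 9 members, where 0.342% of miRNAs were higher, 2.05% lower and 2.4% either. let-7f had a log2 share ratio of 0.31 ± 0.12 (edgeR, adjusted p = 0.178), let-7d of -0.29 ± 0.15 (0.299), let-7g of 0.21 ± 0.13 (0.359) and let-7i of -0.07 ± 0.08 (0.670). At an unadjusted p under 0.05 there was 1 of 9, let-7f, against 22.1% of all miRNAs, and by DESeq2 there was none with that unadjusted p, against 18.0% of all miRNAs. Leaving out Ptf1a-/- replicate 1 gave 4 members with a higher and 4 with a lower share, where 9.33% of all miRNAs were higher and 54.7% lower. Leaving out replicate 2 gave 3 higher and 4 lower, where 22.2% of all miRNAs were higher and 23.9% lower. Without replicate 1 the log2 share ratio was -0.42 for let-7d, 0.13 for let-7g and -0.03 for let-7i, and without replicate 2 it was -0.17 for let-7d, 0.29 for let-7g and -0.11 for let-7i.

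**Figure D3:**
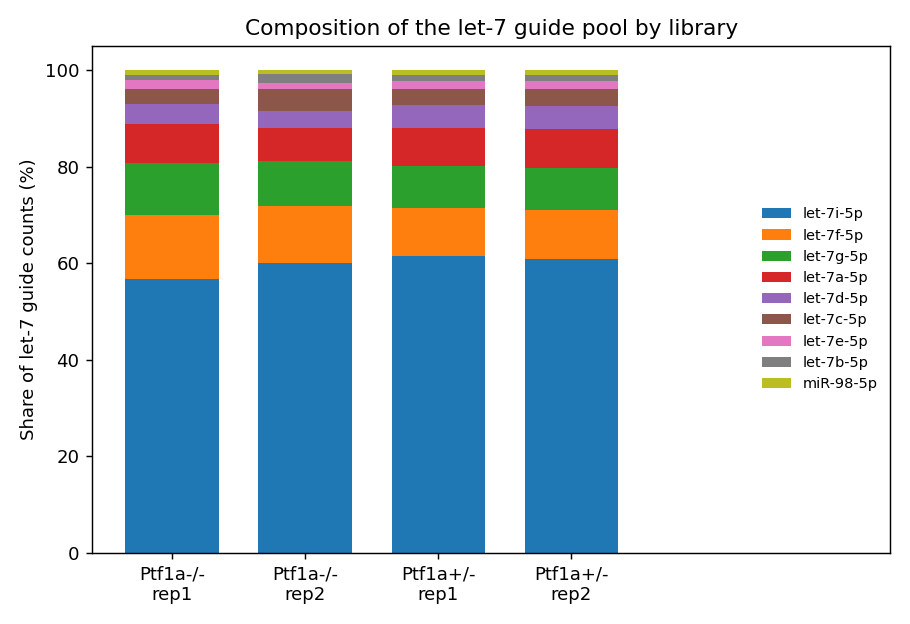
Share of each paralog in the let-7 guide counts (%) of each library, the Ptf1a-/- libraries left of the Ptf1a+/- libraries. let-7i takes 56.7 to 61.4% in all 4 libraries, and let-7f takes 13.4 and 11.8% in Ptf1a-/- and 10.1 and 10.2% in Ptf1a+/-.

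Ratios between miRNAs of a locus put the same counts on a scale that needs no normalisation. In the chromosome 13 cluster there were 1.66 and 1.72 counts of let-7f per count of let-7a in Ptf1a-/- and 1.29 and 1.26 in Ptf1a+/-. The difference of 0.41 on the log2 scale was larger than the range within either genotype, 0.06 in Ptf1a-/- and 0.03 in Ptf1a+/-. The ratio of let-7a to let-7d was 1.91 and 1.93 in Ptf1a-/- and 1.68 and 1.69 in Ptf1a+/-. That of let-7f to let-7d was 3.17 and 3.33 in Ptf1a-/- and 2.16 and 2.13 in Ptf1a+/-, the widest gap of the 36 member pairs, with a log2 difference of 0.60. let-7a and let-7f also come from other chromosomes, so these are ratios of mature pools and not of 1 transcript. On chromosome X, let-7f to miR-98 stood at 13.6 and 15.6 in Ptf1a-/- and 10.6 and 10.7 in Ptf1a+/-. An exact permutation test of 2 against 2 libraries cannot give a p below 0.33, so no test is given. Of the 36 pairs, 17 (47.2%) did not overlap between genotypes, against 72.2% of 3081 pairs among the 79 miRNAs with a mean of 1000 CPM or more. Of those 3081 pairs, 43.9% did not overlap and had a log2 difference at least that of let-7f over let-7a. A shift of this size without overlap was therefore common among pairs of abundant miRNAs. How narrow the range within genotypes was over those pairs was not measured.

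let-7b and let-7c had a different pattern, a split within Ptf1a-/-. Replicate 2 over replicate 1 was 2.27 for let-7b and 1.94 for let-7c in Ptf1a-/-, and 1.00 and 1.01 in Ptf1a+/-. Among the 79 miRNAs with a mean of 1000 CPM or more, these were the first and second largest such ratios in Ptf1a-/-, where the median was 1.17. The ratio of let-7b to let-7c was 0.367 and 0.430 in Ptf1a-/- and 0.391 and 0.389 in Ptf1a+/-, a log2 range of 0.23 and 0.0075. Both carry A19G, and both are made from the chromosome 15 locus, let-7c also from chromosome 16. The cause of the split was not tested. let-7i came eighth of the 79 at 1.45, and let-7e had 0.997. let-7b-3p, the passenger arm of let-7b, had 23 and 13 counts in Ptf1a-/- and 16 and 12 counts in Ptf1a+/-, too few to follow its guide.

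**Figure D4:**
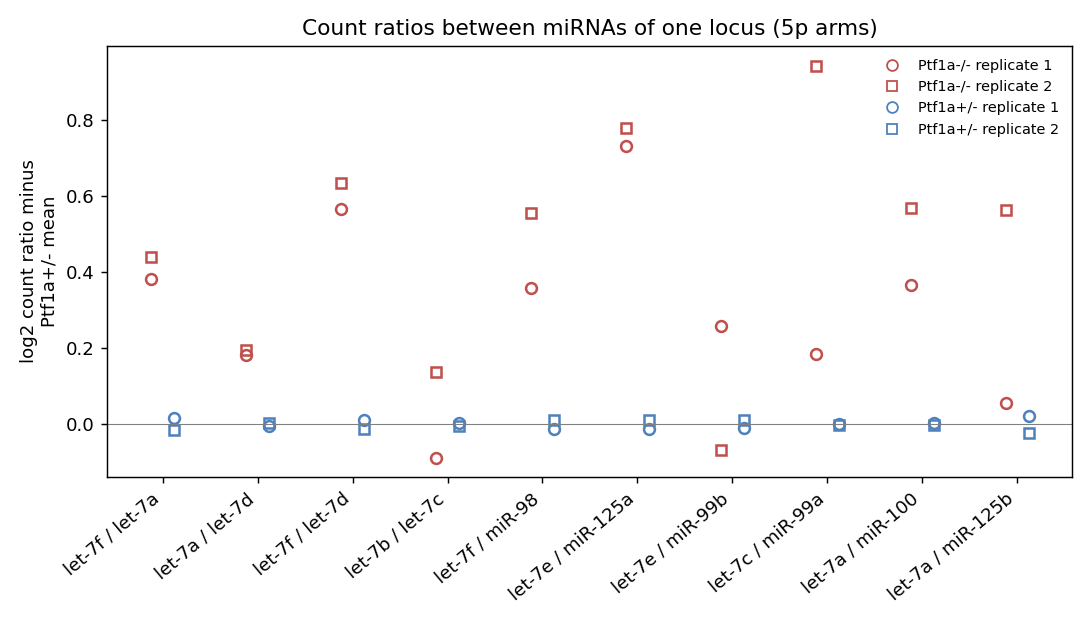
log2 count ratio between 5p arms of 1 locus in each library, minus the Ptf1a+/- mean, with Ptf1a-/- left of Ptf1a+/- in each column. The ratio of let-7e to miR-125a lies farthest from 0 in both Ptf1a-/- libraries among ratios whose replicates nearly coincide, and let-7b to let-7c straddles 0.

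Partners were taken from a list of 18 miRNAs: the 12 passenger arms of the members' hairpins, the miR-99, miR-100 and miR-125 guides made beside let-7, and miR-9-5p. Of the 15 entries measured, 0 were higher and 1 was lower. miR-125a-5p, made 367 bases from let-7e, fell to 5617 and 5424 CPM in Ptf1a-/-, against 7864 and 7926 CPM in Ptf1a+/- (log2 fold change -0.52 ± 0.11, edgeR adjusted p = 0.0430). Its log2 fold change lay between -0.86 and -0.49 under the 17 alternatives, but 6 of them lost the call. The adjusted p was 0.649 without Ptf1a+/- replicate 1, 0.636 without Ptf1a+/- replicate 2, 0.583 with that pair summed and 0.166 with the replicate block. let-7e thus stood at 0.461 and 0.477 counts per count of miR-125a in Ptf1a-/- and 0.275 and 0.280 in Ptf1a+/-, a log2 difference of 0.76. Against miR-99b, the third guide beside let-7e, the ratio overlapped, at 0.161 and 0.128 in Ptf1a-/- and 0.133 and 0.135 in Ptf1a+/-. The next partners by p were miR-100-5p (-0.34 ± 0.10, edgeR adjusted p = 0.102) and the arm listed for let-7a-1-3p and let-7c-2-3p alike (0.45 ± 0.14, adjusted p = 0.108). miR-9-5p stood at 0.38 ± 0.20 (adjusted p = 0.300). The median log2 fold change was 0.17 over the 8 distinct passenger arms, counting that shared entry once, and -0.20 over the 6 other partners, against -0.0031 over all miRNAs.

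Where a hairpin is the only source of both arms, guide and passenger can be compared directly. let-7d-5p gave 22.04 and 22.5 counts per count of let-7d-3p in Ptf1a-/- and 22.8 and 22.6 in Ptf1a+/-, a log2 difference of -0.03. let-7e-5p gave 74.4 and 67.2 counts per count of let-7e-3p in Ptf1a-/- and 47.7 and 49.7 in Ptf1a+/-, a log2 difference of 0.54. The passenger let-7e-3p itself had 135 and 125 counts in Ptf1a-/- and 176 and 210 in Ptf1a+/- (log2 fold change -0.30 ± 0.16, edgeR adjusted p = 0.321). let-7i-5p had far more guide per passenger, 6513 and 12792 in Ptf1a-/- and 6499 and 6743 in Ptf1a+/-, over 47 and 29 passenger counts in Ptf1a-/- and 51 and 58 in Ptf1a+/-. miR-98-5p gave 221 and 173 counts per count of miR-98-3p in Ptf1a-/- and 113 and 157 in Ptf1a+/-, a log2 difference of 0.55. The log2 range within Ptf1a+/- alone was 0.47. Passenger counts of miR-98-3p were 24 and 27 in Ptf1a-/- and 46 and 39 in Ptf1a+/-. let-7g-3p had 6 and 3 counts in Ptf1a-/- and 8 and 5 in Ptf1a+/-, and no ratio is given for it.

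Of the other entries with let-7 in their name, let-7j had 204 and 292 counts in Ptf1a-/- and 239 and 294 in Ptf1a+/-. Its most frequent deposited sequence was the same in all 4 libraries.
let-7j as sequenced: uGAGGUAAuaguuugugcuguu

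It is 22 nt long, where RefSeq let-7j has 24 nt, and over those 22 bases it differs from RefSeq let-7j by U8A. From let-7i, printed above, it differs by G8A alone. let-7j counts were 0.0666 and 0.0787% of those of let-7i in Ptf1a-/- and 0.0721 and 0.0750% in Ptf1a+/-. let-7k, which has the members' seed, had 8 and 16 counts in Ptf1a-/- and 11 and 6 in Ptf1a+/-, and its most frequent sequence differed between libraries. miR-1961, with the same seed, had 1 count in all 4 libraries together. miR-3962, whose deposited sequence read with its 5′ extension has that seed, was listed at 0.

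The miRNAs whose profile over the 4 libraries was most like that of the family total were miR-381-3p, miR-124-5p, miR-30d-5p, miR-192-5p and miR-101b-3p, of 191 others with a mean of 100 CPM or more. Their root mean square difference from it, after centring the log2 CPM, was 0.0195 to 0.0634. miR-30d-5p, the most abundant of them, stood at 25354 and 35345 CPM in Ptf1a-/- and 26947 and 26457 CPM in Ptf1a+/-, again with replicate 2 of Ptf1a-/- well above the rest. That library, whose TMM factor was the smallest, was the highest for all 5 with TMM. Their log2 fold changes were 0.14 to 0.30 with TMM and -0.22 to -0.05 on the deposited CPM, given without a test because they were chosen for this profile.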

How the data were processed

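Small RNA (18 to 30 nt) from TRIzol extracts was made into libraries with a New England Biolabs kit, with gel cuts of RNA and of cDNA, per the labels' protocols. Per the submitters' processing notes, demultiplexing used bcl2fastq 2.20.0.422. Aligner, counter and build: not given in the sources used here. What the authors deposited is a table of estimated counts per mature miRNA, the same values as CPM of a larger total, and the most frequent sequence per library. Counts were rounded, scaled by TMM and tested with edgeR 4.0.16 (quasi-likelihood, R 4.3.3) for Ptf1a-/- over Ptf1a+/- among miRNAs reaching 10 counts in at least 2 libraries (Benjamini-Hochberg adjusted p under 0.05), and again with the summed member counts as library size. SE derive from the fit. DESeq2 1.42.0 and limma 3.58.1 on log2(CPM + 1) were alternatives. The fits were checked on simulated data for the direction and size of large changes only, with no limit set on false calls. A count of 0 allows up to 0.684 to 0.823 CPM of listed counts (3 counts; intervals and limits cover counting error only). Named miRNAs are the 9 members, same-seed entries, locus partners (those called and the 3 lowest p) and the 5 most similar profiles; pairwise ratios and the replicate split were chosen after values were seen. Members and lists were chosen with earlier results of these data known. Group and replicate came from the titles. Replicate numbers are not said to pair libraries.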

Additional observations from a re-analysis of the deposited data

How the results depend on the processing

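Of 153 member log2 fold changes under 17 alternatives, 118 kept direction and side of the threshold, 13 newly passed and 22 reversed; of 90 share ratios under 10, 72, 12 and 6. let-7f and let-7g kept their sign throughout. The member sum and median moved to -0.11 and -0.11 (-0.10 with a pseudocount of 5) on the deposited CPM, with pseudocounts of 1, 0.5 and 5 alike, where let-7a stood at -0.21, let-7c at -0.011, let-7e at -0.11 (-0.10 with 5), let-7i at -0.17 and miR-98 at -0.26. With library size only, let-7a stood at -0.054, let-7i at -0.013 and miR-98 at -0.094. DESeq2 called 1 member higher. Over all miRNAs 36 were higher and 21 lower. Library size only gave 4 and 12, no filter 12 and 9, the deposited CPM 1 higher with each pseudocount, and the Ptf1a+/- pair summed 0 and 1. The replicate block gave 5 and 7 and 0 members. The deviations of libraries with the same number had a correlation of 0.05. The Ptf1a+/- pair varied too little for this value to show whether the number pairs libraries. For shares, 2 were higher and 12 lower over all miRNAs. No filter gave 0 and 2, robust fitting 1 higher, the replicate block 6 higher, the pair summed 1 and 2, and DESeq2 11 and 19. Leaving out 1 library gave 0 to 8 members higher and 0 to 4 lower, 0 to 137 miRNAs higher and 0 to 137 lower, and for shares 0 to 4 members each way, 0 to 128 miRNAs higher and 2 to 317 lower. Over the same 4 omissions let-7b ranged from -0.23 to 0.94, let-7c from -0.14 to 0.80, let-7a from 0.029 to 0.23, let-7d from -0.15 to 0.033 and let-7i from -0.092 to 0.43. Share ratios ranged from -0.23 to 0.012 for let-7a, -0.25 to 0.49 for let-7b, -0.16 to 0.35 for let-7c, -0.23 to 0.23 for let-7e and -0.34 to 0.038 for miR-98. Of 7 other miRNAs with a test in the text, 0 reversed; miR-125a-5p lost its call with library size only (-0.69) and with no filter (-0.52), and miR-100-5p, let-7a-1-3p and miR-9-5p newly passed when 1 Ptf1a-/- library, whichever it was, was left out. The ends of the member ranges are the fits without Ptf1a-/- replicate 1 and without replicate 2. The cause was not tested.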
